A study of Mus musculus with 18 samples.

Results

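Integrins are adhesion receptors made of 1 alpha and 1 beta subunit, and 10 genes for subunits carried by leukocytes were followed here through a macrophage knockout of Klf3, a Krüppel-like zinc finger factor that mostly represses transcription. The genes were Itgb2 with its partners Itgal, Itgam and Itgax, Itgb1 with its partners Itga4 and Itga5, Itgav with its partner Itgb3, and Itgb7, which pairs with the product of Itga4. They were chosen by symbol: every probe set annotated to exactly 1 of the 10 genes was taken, which gave 24 of 45037 noncontrol probe sets, and the brightest probe set of each gene gave 10 of the 17097 genes tested.

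RNA came from bone marrow-derived macrophages of male FVB/NJ mice aged 10 to 14 weeks, grown for 7 to 10 days in medium containing 20% L929-conditioned medium as the source of M-CSF, the macrophage growth factor. The 6 groups were Klf3 knockout (KO) and wild-type (WT) cells after 8 h with 100 ng/mL lipopolysaccharide (LPS, a bacterial outer-membrane component that activates macrophages), KO and WT cells after 8 h with the vehicle PBS, and KO and WT cells harvested untreated at 0 h. All 6 groups had been washed and moved out of the L929-conditioned medium into regular medium, at harvest for the 0 h groups and for 8 h in the others, so vehicle against 0 h compares cells after 8 h in the new medium and PBS with cells taken at the change. Each group had 3 samples on 1 Affymetrix HT MG-430PM array each. The labels name no knockout allele, and they leave unsaid whether replicates are separate animals or cultures. The p-values therefore cover the spread among these arrays and no more, which may be technical.

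In the check of the targeted gene, the Klf3 probe set 1421604_PM_a_at lay at 2.47 to 4.12 log2 intensity in the 9 KO arrays and at 7.01 to 8.20 in the 9 WT arrays. Of the 6 Klf3 probe sets, 3 separated the genotypes in this way without overlap. Of 13 macrophage markers measured, 12 (among them Adgre1, Csf1r, Cd68 and Mertk) were above the level of the nonspecific control probe sets in all 18 arrays. That level is the 95th percentile of 23 control probe sets of each array and lay between 3.71 and 4.54 log2 intensity. The WT LPS arrays stood apart in spread: the standard deviation of their genes around the group mean averaged 0.30 log2, against 0.23 in the KO LPS arrays and 0.17 in the WT vehicle arrays. WT LPS arrays were also the dimmest as deposited, with an upper quartile of 71.3 ± 4.47 intensity units (SD, n = 3), against 90.1 ± 15.7 in KO LPS arrays. The Gapdh 5′ minus 3′ control signal, a measure of RNA integrity and labelling, averaged -0.43 log2 in KO LPS, -0.36 in WT LPS, -0.20 in KO vehicle, -0.17 in WT vehicle, 0.09 in KO 0 h and 0.14 in WT 0 h arrays. Its average therefore moved with treatment. Single arrays ran from -0.63 (replicate 3) to -0.07 (replicate 1) in WT LPS and from -0.49 to -0.40 in KO LPS. The part of this signal in the results below was not tested.

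As background, beta subunits signal through their tails, which bind talin and kindlin, while the alpha subunit largely sets which ligand is bound. The Itgb2 product gives LFA-1 with Itgal, which binds ICAM proteins on other cells, and the complement receptors with Itgam (also called CD11b or Mac-1) and Itgax (CD11c). The Itgb1 product gives the VCAM-1 receptor with Itga4 and the fibronectin receptor with Itga5. Itgav with Itgb3 is the vitronectin receptor, known for its role in osteoclast attachment, and Itga4 with Itgb7 binds MAdCAM-1 on gut vessels.

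Promoter sequence is shown for the 3 genes on which the comparisons of KO with WT turn most and for which it was at hand, since Klf3 is known to bind CACCC sequences and PU.1, the factor that drives many myeloid integrin genes, binds around GAGGAA. The RefSeq promoter table of build GRCm38.p6 held 7 of the 10 genes. Itgb2, Itgb3 and Itgal were not matched. Each sequence below is the 250 bases before the annotated start, 5′ to 3′ on the gene's strand, with every match to CACCC or GAGGAA on either strand (GGGTG and TTCCTC on the other) in capitals. Itgb7 lies on the minus strand at chr15:102231936-102232185, Itgav on the plus strand at chr2:83724147-83724396, and Itgam on the plus strand at chr7:128062390-128062639.
Itgb7: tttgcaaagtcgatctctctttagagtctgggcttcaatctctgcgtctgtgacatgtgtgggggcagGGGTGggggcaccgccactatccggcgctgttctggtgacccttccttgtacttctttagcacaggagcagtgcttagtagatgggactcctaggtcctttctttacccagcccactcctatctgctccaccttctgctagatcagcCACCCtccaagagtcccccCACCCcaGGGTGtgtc
Itgav: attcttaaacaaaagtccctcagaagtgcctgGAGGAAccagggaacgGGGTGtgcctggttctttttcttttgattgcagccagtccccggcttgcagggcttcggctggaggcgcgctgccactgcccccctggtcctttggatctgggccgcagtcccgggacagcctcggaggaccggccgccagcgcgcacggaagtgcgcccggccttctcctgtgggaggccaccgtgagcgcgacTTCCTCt
Itgam: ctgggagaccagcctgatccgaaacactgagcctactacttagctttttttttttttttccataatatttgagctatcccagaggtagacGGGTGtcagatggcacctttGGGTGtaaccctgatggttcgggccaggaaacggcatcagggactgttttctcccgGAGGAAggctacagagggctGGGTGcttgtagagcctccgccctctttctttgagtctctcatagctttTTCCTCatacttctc
The Itgb7 window held 4 CACCC matches, at -182, -35, -16 and -9 from the start, and no GAGGAA match. The Itgav window held 1 CACCC match at -202 and 2 GAGGAA matches at -218 and -7. In the Itgam window there were 3 CACCC matches and 2 GAGGAA matches. CACCC was found in 5 of the 7 windows (Itgb1, Itgb7, Itga4, Itgam and Itgav) and in 52.0% of all 32851 promoter windows of this length. GAGGAA was found in 4 of the 7 (Itgb1, Itga5, Itgam and Itgav) and in 23.3% of all windows. Matches to the 2 motifs on opposite strands can share a base, which none of those in the 7 windows did. A match is a description of the sequence only, and Itgax had neither motif in this window.

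Levels of the 10 genes differed in how far they moved over the 6 groups. The common beta subunits were steady: group means of Itgb2 spanned 0.15 log2 and those of Itgb1 spanned 0.35 log2. The alpha subunits and the rarer beta subunits ranged more widely, with spans of 5.02 for Itgal, 4.01 for Itga5, 3.17 for Itga4, 2.79 for Itgb7, 2.34 for Itgb3, 2.31 for Itgax, 1.79 for Itgav and 1.67 for Itgam. Probe sets of 8 genes were above the nonspecific control level in all 18 arrays, that of Itga5 in 15 and that of Itgb3 in 3, all of them WT 0 h arrays. Because these are whole cultures, fewer cells carrying a transcript and less RNA per cell cannot be told apart.

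**Figure D1:**
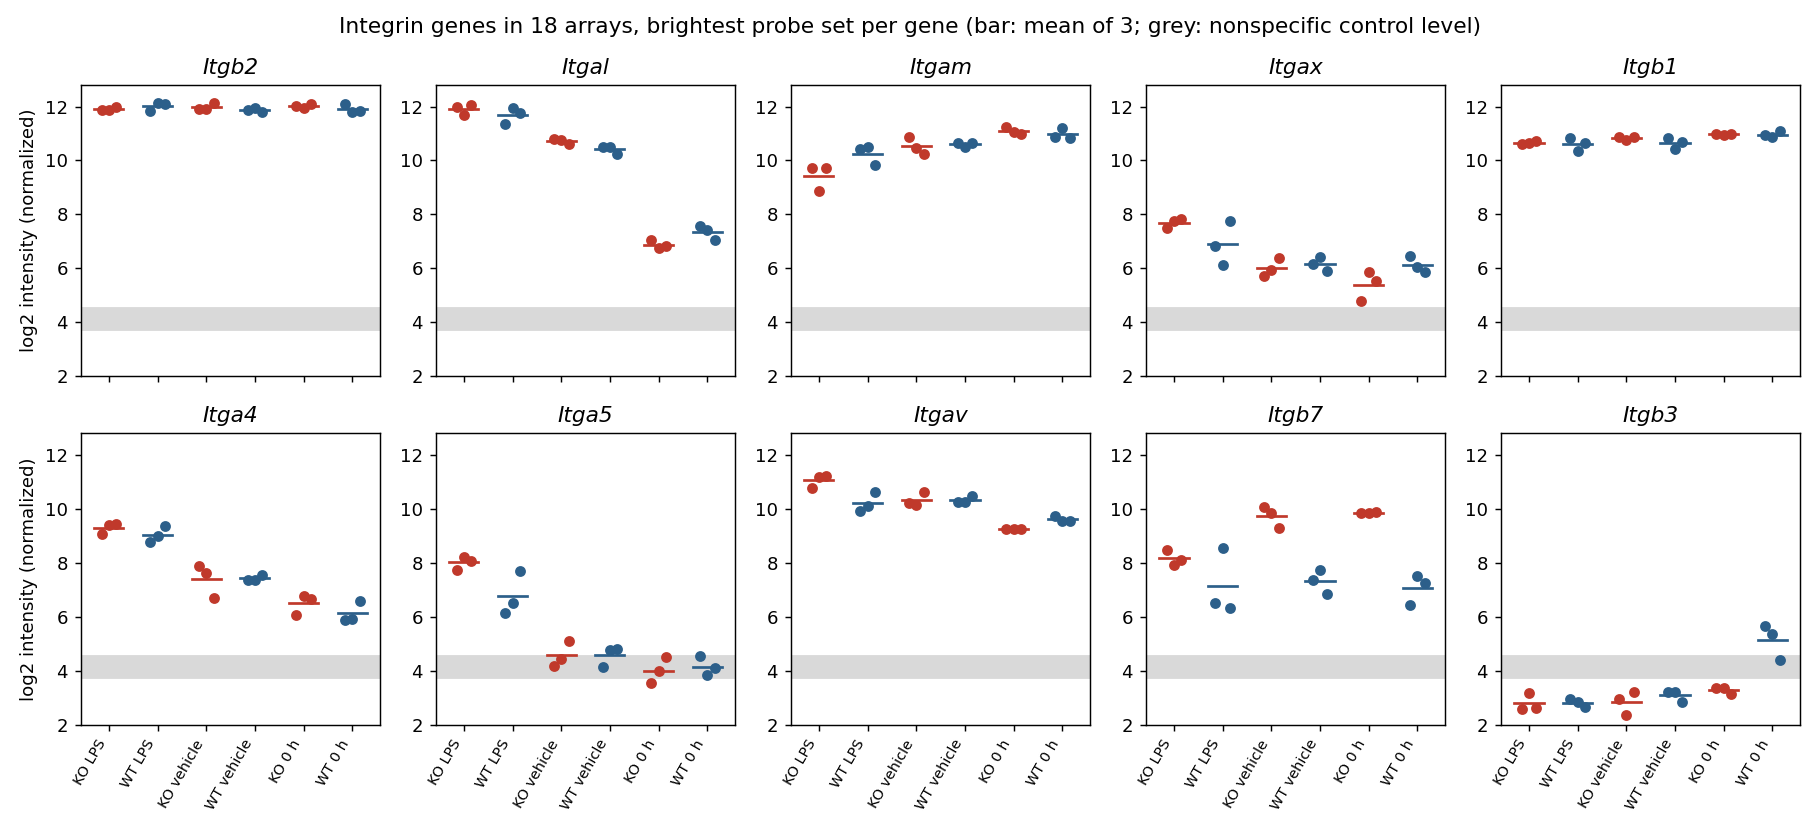
Normalized log2 intensity (vertical axis) of the brightest probe set of each integrin gene in the 3 arrays of each group (points, KO red and WT blue, bar at the mean), with the range of the nonspecific control level in grey. Itgb2 and Itgb1 stay within a narrow range, and Itgal climbs by several log2 units with time and LPS. Itgb7 lies higher in the KO 0 h and KO vehicle arrays than in the WT arrays. Itgb3 lies under the grey band in all arrays except those of WT 0 h.

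The LPS comparison asked which integrin genes respond to LPS beyond the vehicle and whether the response depends on Klf3. Tests are limma's moderated test on all 18 arrays, with Benjamini-Hochberg adjustment over the 17097 genes and 0.05 as the threshold. The error given with a log2 difference is its standard error. In KO cells 5 of the 10 genes rose and 2 fell after LPS, and 34.5% of all genes passed in this comparison (13.9% higher and 20.6% lower). In WT cells 3 rose and none of the 10 fell, against 32.3% of all genes passing (13.7% higher and 18.7% lower). The median log2 difference of the 10 genes was 0.35 in KO and 0.06 in WT cells, beside -0.03 and -0.01 over all genes. Arrays of KO LPS and KO vehicle did not overlap for 8 of the 10 genes (45.5% of all genes), and those of WT LPS and WT vehicle for 4 of the 10 (40.9% of all genes).

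Itga5, the fibronectin receptor subunit, showed the widest LPS difference among the 10. It read 7.74, 8.22 and 8.07 log2 intensity in KO LPS arrays, against 4.16, 4.42 and 5.10 in KO vehicle arrays. In WT LPS arrays it read 6.12, 6.52 and 7.70, against 4.13, 4.75 and 4.80 in WT vehicle arrays. Vehicle values sat close to the nonspecific control level, while all 6 LPS arrays were clear of it and above every vehicle array. The difference was 3.45 ± 0.36 log2 in KO (10.9-fold, adjusted p = 1.15e-06) and 2.22 ± 0.36 in WT cells (4.66-fold, adjusted p = 0.000134).

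Itga4, which forms the VCAM-1 receptor, rose in both genotypes as well. Its readings were 9.06, 9.39 and 9.43 in KO LPS arrays against 7.89, 7.61 and 6.69 in KO vehicle arrays, a difference of 1.90 ± 0.28 log2 (adjusted p = 3.84e-05). WT LPS arrays read 8.75, 9.0 and 9.36 and WT vehicle arrays 7.36, 7.37 and 7.53, a difference of 1.62 ± 0.28 (adjusted p = 0.00021). LPS and vehicle arrays did not overlap in either genotype. The other 3 Itga4 probe sets that were above the control level rose too, by 1.07 to 2.04 log2 in KO and by 0.62 to 1.25 in WT cells, each past the threshold in a fit over all probe sets, in which 27.6% passed for KO and 25.1% for WT cells, while 1427615_PM_at was above the level in none of the 18 arrays.

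Itgal, the LFA-1 alpha subunit, combined a large difference between vehicle and 0 h with a smaller one between LPS and vehicle. It read 11.97, 11.67 and 12.05 log2 in KO LPS arrays, 10.79, 10.77 and 10.63 in KO vehicle arrays and 7.03, 6.75 and 6.83 in KO 0 h arrays. In WT cells the values were 11.36, 11.94 and 11.74 after LPS, 10.51, 10.51 and 10.25 after vehicle and 7.58, 7.42 and 7.04 at 0 h. None of the 3 conditions overlapped another within a genotype. LPS exceeded vehicle by 1.16 ± 0.17 log2 in KO (adjusted p = 3.51e-05) and by 1.26 ± 0.17 in WT cells (adjusted p = 1.86e-05). A second Itgal probe set, 1425367_PM_at, rose by 1.46 in KO and 1.49 in WT cells.

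Itgax, which encodes CD11c, rose with LPS in KO cells by 1.68 ± 0.34 log2 (3.20-fold, adjusted p = 0.000774). The KO LPS arrays read 7.50, 7.76 and 7.82, all above the KO vehicle arrays at 5.72, 5.94 and 6.39. WT LPS arrays were spread over 6.84, 6.14 and 7.77 and overlapped the WT vehicle arrays at 6.15, 6.42 and 5.91. The WT difference was 0.76 ± 0.34 (adjusted p = 0.101), and without WT LPS replicate 2, the lowest of the 3, it was 1.15 with an adjusted p of 0.0107. This WT difference passed in 2 of 19 alternatives, and over the others the adjusted p reached 0.996. Of 9 listed markers of dendritic cells, the cells best known for CD11c, 5 were measured (Flt3, Zbtb46, Dpp4, Xcr1 and Cd209a). None of the 5 exceeded the control level in any array, and the part of dendritic cells in the Itgax result was not tested.

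Itgam and Itgb7 were the 2 genes that fell with LPS in KO cells. Itgam read 9.72, 8.86 and 9.71 in KO LPS arrays against 10.87, 10.47 and 10.24 in KO vehicle arrays, a difference of -1.10 ± 0.23 log2 (adjusted p = 0.0011). The WT LPS arrays read 10.44, 10.49 and 9.83 and the WT vehicle arrays 10.65, 10.51 and 10.67, a difference of -0.36 ± 0.23 that did not pass (adjusted p = 0.277). In both genotypes all 3 LPS arrays lay under all 3 vehicle arrays. Shifting arrays to a common median or to common hybridisation controls in place of quantile normalization gave the KO fall of Itgam an adjusted p of 0.0508 and 0.0751.

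Itgb7 read 8.47, 7.90 and 8.10 in KO LPS arrays, under the KO vehicle arrays at 10.06, 9.85 and 9.28, and the fall was 1.57 ± 0.45 log2 in size (2.97-fold, adjusted p = 0.0105). Leaving out KO replicate 1 or 2, each with its arrays in all 3 conditions, gave adjusted p-values of 0.0658 and 0.114. WT LPS arrays read 6.52, 8.54 and 6.30, on both sides of the WT vehicle arrays at 7.36, 7.74 and 6.84. The WT difference was -0.19 ± 0.45 (adjusted p = 0.806), and without WT LPS replicate 2, the high array, it was -0.90 (adjusted p = 0.0361). That was the 1 of 19 alternatives in which the WT difference passed, and over the others the adjusted p reached 0.988.

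Itgav rose with LPS in KO cells by 0.73 ± 0.18 log2 (1.66-fold, adjusted p = 0.00355). Its KO LPS arrays read 10.78, 11.17 and 11.20, all above the KO vehicle arrays at 10.20, 10.12 and 10.64. In WT cells the LPS arrays at 9.91, 10.11 and 10.61 overlapped the vehicle arrays at 10.24, 10.24 and 10.46, with a difference of -0.10 ± 0.18 (adjusted p = 0.743). Without KO replicate 2 the KO difference was 0.57 with an adjusted p of 0.0858. Itgb1, Itgb2 and Itgb3 did not pass in either genotype: the 95% confidence intervals of the LPS difference were -0.46 to 0.10 in KO and -0.31 to 0.24 in WT cells for Itgb1, and -0.35 to 0.15 in KO and -0.10 to 0.40 in WT cells for Itgb2. Itgb3 was at or under the control level in all LPS and vehicle arrays, so it has no fold there.

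**Figure D2:**
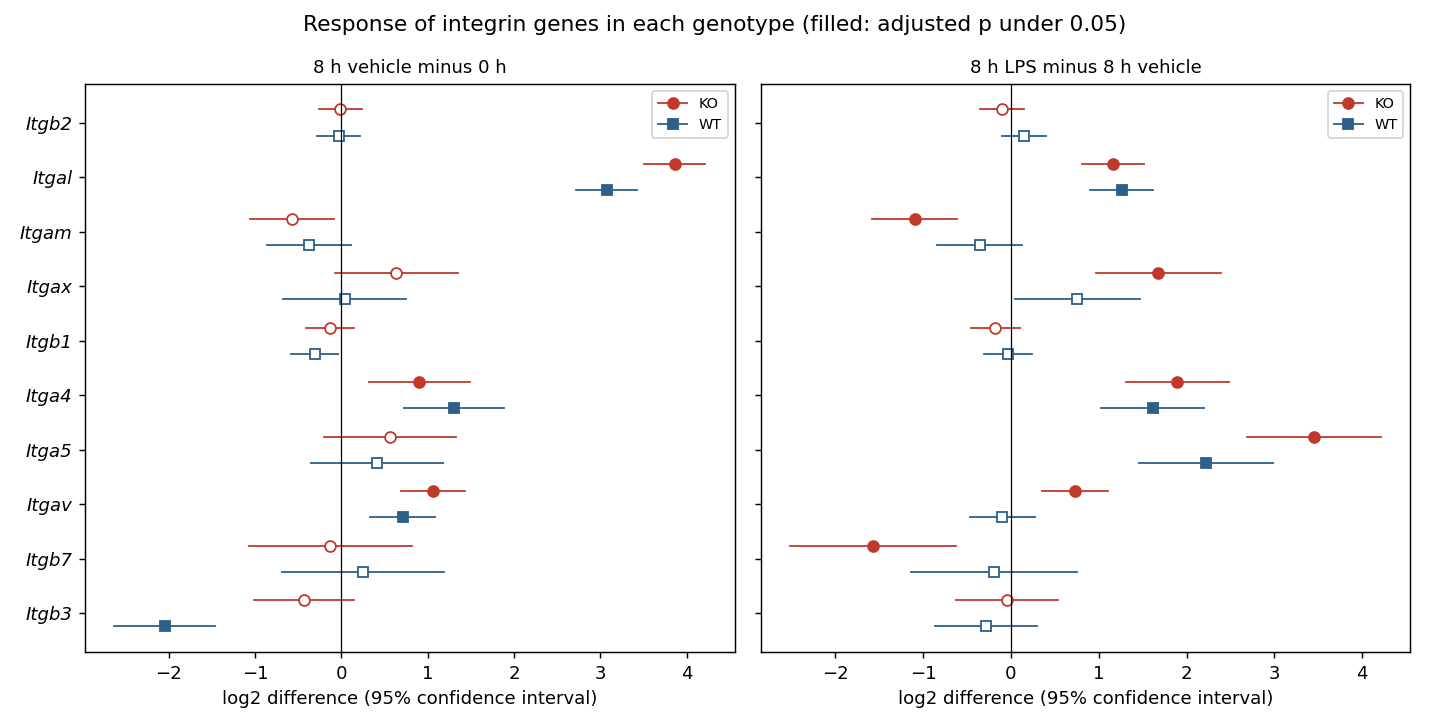
Log2 difference (horizontal axis, 95% confidence interval) of each integrin gene for 8 h vehicle minus 0 h (left) and 8 h LPS minus 8 h vehicle (right), KO as red circles and WT as blue squares, filled where the adjusted p is under 0.05. Itgal is far to the right in both genotypes on the left panel, and on the right panel Itga5, Itga4 and Itgal are filled in both genotypes while Itgav, Itgax, Itgam and Itgb7 are filled in KO cells.

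Passing in KO and not in WT cells does not show that the responses differ, so the difference between the responses was tested. None of the 10 genes passed in limma's interaction test, in which 1.11% of all genes passed. Of all 17097 genes 2077 had an unadjusted p under 0.05 in this test, and 4 of the 10 did. These were Itgav (0.83 ± 0.25 log2, KO response minus WT response, adjusted p = 0.15), Itga5 (1.23 ± 0.51, adjusted p = 0.332), Itgam (-0.74 ± 0.32, adjusted p = 0.359) and Itgb7 (-1.38 ± 0.63, adjusted p = 0.386). For Itgav the adjusted p was 0.0381 with arrays shifted to a common median, 0.0196 on the deposited scale, 0.0387 with the mean of all probe sets, and 0.0229 without WT LPS replicate 3. Those were the 4 of 19 alternatives in which Itgav passed. In the other 15 the adjusted p reached 0.496, and over all 19 the difference ran from 0.67 to 1.45 log2.

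The 5 Itgav probe sets were not alike in this comparison. The probe set 1421198_PM_at, above the control level in all 18 arrays, read 7.46, 8.05 and 8.00 in KO LPS arrays and 6.24, 6.19 and 6.42 in KO vehicle arrays. In WT LPS arrays it read 7.00, 6.60 and 6.76 and in WT vehicle arrays 6.41, 6.29 and 6.63. KO LPS arrays thus stood above all others, and WT LPS arrays overlapped WT vehicle arrays slightly. Its difference in response was 1.21 ± 0.27 log2, with an adjusted p of 0.0498 over all 45037 probe sets, of which 0.608% passed. In KO cells it rose by 1.56 ± 0.19 (adjusted p = 6.45e-06), and in WT cells the difference was 0.35 (adjusted p = 0.215). The dimmer sets, 1432296_PM_a_at and 1432678_PM_at, also rose in KO cells, by 1.60 ± 0.26 and 1.35 ± 0.27, although the second was above the control level in just 2 of the 18 arrays. The fifth, 1432679_PM_at, was above the level in 1 array and was not called.

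**Figure D3:**
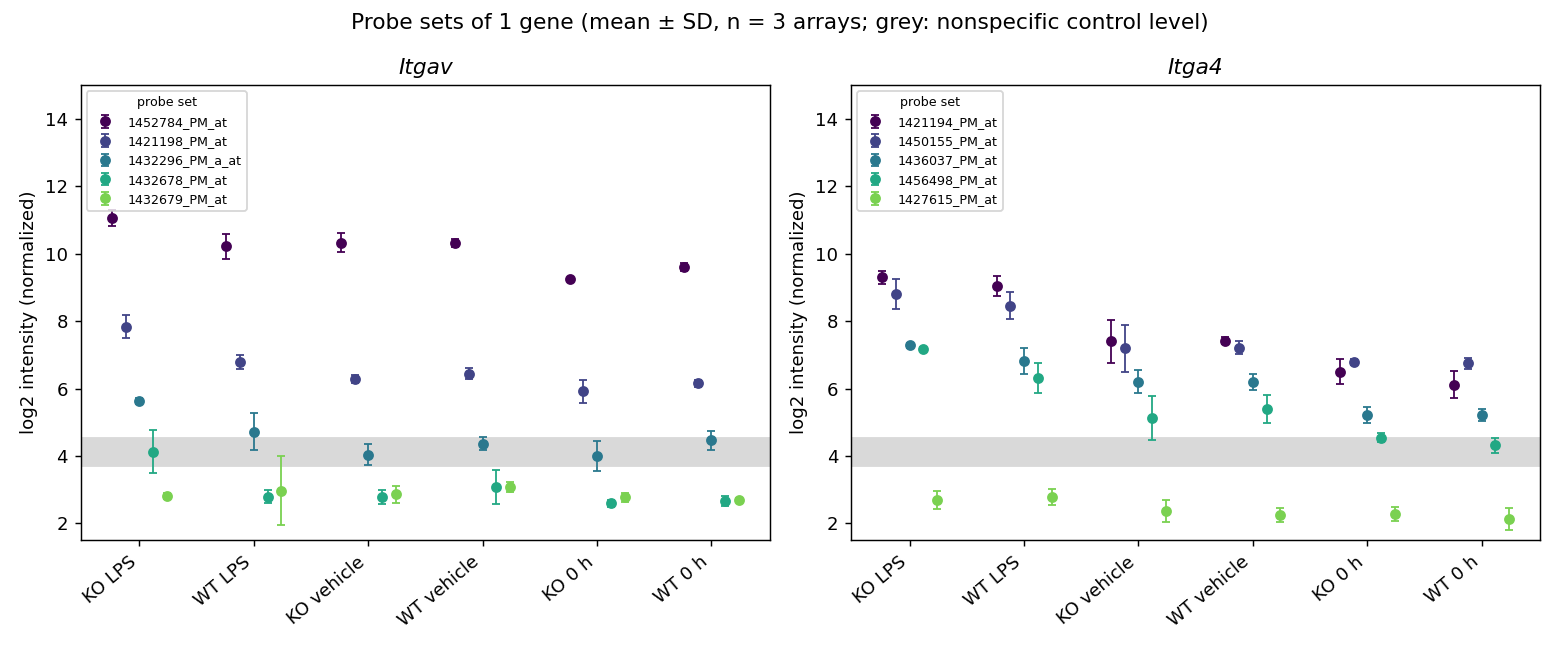
Mean ± SD (n = 3 arrays) of the normalized log2 intensity of every probe set of Itgav (left) and Itga4 (right) in the 6 groups, with the range of the nonspecific control level in grey. The 3 brighter Itgav probe sets are highest in KO LPS arrays, and 4 of the 5 Itga4 probe sets are highest in the LPS arrays of both genotypes.

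Markers of other cells moved with LPS too. The summed signal of 9 neutrophil markers ran from 544 to 723 intensity units in KO LPS arrays and from 1084 to 1326 in WT LPS arrays, against 175 to 372 in KO vehicle and 407 to 465 in WT vehicle arrays. Camp, S100a8 and Csf3r carried it, while S100a9, Mpo, Elane, Ltf and Cxcr2 exceeded the control level in no array. The summed signal of 5 monocyte markers was 504 to 623 in KO LPS and 1233 to 1842 in WT LPS arrays, against 715 to 2352 in KO vehicle and 1842 to 2592 in WT vehicle arrays, mostly from F13a1. That sum was lower in KO LPS than in WT LPS arrays, as Itgam was. The summed signal of 7 osteoclast markers was 1381 to 1672 in KO LPS and 870 to 1484 in WT LPS arrays, against 569 to 701 in KO vehicle and 524 to 618 in WT vehicle arrays, so it was higher after LPS in both genotypes. Of these markers Acp5 and Nfatc1 were above the control level in all 18 arrays and Ocstamp and Oscar in none, and the part of these cell types in the integrin results was not tested.

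Comparison of KO with WT cells in each condition asked what loss of Klf3 itself does to these genes. At 0 h 1 of the 10 was higher in KO cells and 1 lower, against 0.14% of all genes passing (0.111% higher and 0.0292% lower), and KO and WT arrays did not overlap for 5 of the 10, against 14.6% of all genes. The 2 were Itgb7 and Itgb3. Itgb7 read 9.86, 9.84 and 9.87 log2 in KO 0 h arrays and 6.44, 7.52 and 7.23 in WT 0 h arrays. All 3 KO arrays lay above all 3 WT arrays, and the KO arrays were nearly equal while the WT arrays were spread over a log2 unit. The difference was 2.79 ± 0.45 log2 (6.93-fold, adjusted p = 0.0173). With any of KO replicates 1, 2 or 3 left out the difference was 2.79, 2.80 and 2.79 and the adjusted p was 0.0969, 0.167 and 0.119, and without WT replicate 1, the lowest WT array, the difference was 2.48 and the adjusted p 0.189.

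Itgb7 remained higher in KO cells after vehicle in all arrays, at 10.06, 9.85 and 9.28 against 7.36, 7.74 and 6.84 in WT vehicle arrays. Here the log2 difference was 2.42 ± 0.45 with an unadjusted p of 5.62e-05 and an adjusted p of 0.233. None of the 17097 genes passed limma's test in this comparison (0%). Over all genes 778 had an unadjusted p under 0.05, and Itgb7 was the 1 integrin gene among them. Without WT replicate 2 the adjusted p was 0.00248, and without the WT LPS array of replicate 2 alone, which enters through the shared spread, it was 0.00482. Itgb7 passed after vehicle in 3 of 19 alternatives, and over the others the adjusted p reached 0.752. KO and WT vehicle arrays did not overlap for 2 of the 10 genes, Itgb7 and Itgal, against 12% of all genes. After LPS the difference was 1.04 ± 0.45 (adjusted p = 0.211), and the WT LPS array of replicate 2 at 8.54 lay above all 3 KO arrays. Without that array it was 1.75 (adjusted p = 0.00453). After LPS Itgb7 passed in 4 of 19 alternatives, and over the others the adjusted p reached 0.529.

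Over the 3 conditions together, with the 3 arrays of a genotype and replicate number averaged first, Itgb7 was the only 1 of the 10 to pass, against 0.368% of all genes. It was 2.08 ± 0.29 log2 higher in KO cells (4.23-fold, adjusted p = 0.0283). That call was lost without KO replicate 1, 2 or 3 (adjusted p = 0.0978, 0.116 and 0.0943) and without WT replicate 1 or 3 (0.114 and 0.0764), and with the plate column as a block (0.0633). Arrays of each plate column held 1 KO and 1 WT array of each condition: KO minus WT for Itgb7 ran within the 3 columns from 2.35 to 3.40 at 0 h, from 1.54 to 3.21 in vehicle-treated cells, and from -0.44 to 2.17 in LPS-treated cells. Over all arrays Itgb7 had a minimum of 7.90, a median of 9.84 and a maximum of 10.06 in the 9 KO arrays, and a minimum of 6.30, a median of 7.23 and a maximum of 8.54 in the 9 WT arrays.

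Beside the Itgb7 difference, markers of lymphocytes and mast cells, which are known to carry this subunit, were mostly at or under the control level. None of 7 mast cell and basophil markers exceeded the control level in any array. Of 9 T and NK cell markers, 5 exceeded it in none (Cd3d, Cd3g, Ncr1, Klrb1c and Thy1). In every group except KO 0 h, 1 of the 9 exceeded it in all 3 arrays. At or under it in all 3 arrays were 8 of the 9 in KO 0 h, WT 0 h and WT LPS, 7 in KO LPS and 6 in each vehicle group. The summed signal of all 9 was 79.2 to 97.1 in KO 0 h and 83.5 to 90.3 in WT 0 h arrays. Of 5 B and plasma cell markers, Cd79a, Ms4a1, Pax5 and Jchain exceeded it in no array. The fifth, Cd79b, exceeded it in all 9 KO arrays and in 5 of the 9 WT arrays, with means of 4.88 log2 in KO 0 h and 4.38 in WT 0 h, 4.43 in KO vehicle and 4.02 in WT vehicle, and 4.17 in KO LPS and 4.04 in WT LPS arrays. The sum of 5 monocyte markers was 2723 to 3396 in KO 0 h and 1896 to 3114 in WT 0 h arrays, so the genotypes overlapped. Of these 5, F13a1 exceeded the control level in all 18 arrays and Chil3 in none. Ccr2, singled out from this list after its values were seen, averaged 9.06 log2 in KO 0 h and 6.39 in WT 0 h arrays. The part of these markers in the Itgb7 result was not tested.

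Itgb3, the partner of Itgav in the vitronectin receptor, was lower in KO cells at 0 h. It read 3.34, 3.35 and 3.11 log2 in KO 0 h arrays, all under the control level, and 5.65, 5.35 and 4.39 in WT 0 h arrays, all above it. Against the control level this is at least 2.08-fold lower in KO cells, and the fitted difference was -1.86 ± 0.27 log2 (adjusted p = 0.0105). The call did not survive leaving out KO replicate 1, 2 or 3 (adjusted p = 0.068, 0.0652 and 0.0875) or WT replicate 1 or 2 (0.171 and 0.0878), nor raising values to the control level (0.0717). In the other 2 conditions Itgb3 was at or under the level in both genotypes. The second Itgb3 probe set exceeded the level in no array. Osteoclast markers, of which 7 were measured, summed to 569 to 646 in KO 0 h and 482 to 520 in WT 0 h arrays, with Ocstamp and Oscar above the level in none. Of the megakaryocyte markers, Gp9 and Gp1bb were above it in no array and Pf4 in all 18.

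After LPS 1 gene was higher and 1 lower in KO than in WT cells, and 5.97% of all genes passed (2.82% higher and 3.15% lower). The balance moved with the scaling: 4 of the 10 were higher and none lower both on the deposited scale, where 1238 of all genes were higher and 129 lower, and with common hybridisation controls, where 533 were higher and 73 lower. Itgav was higher by 0.84 ± 0.18 log2 (1.79-fold, adjusted p = 0.00922), with all 3 KO LPS arrays above all 3 WT LPS arrays, and the probe set 1421198_PM_at was higher by 1.05 ± 0.19, in a fit where 3.83% of all probe sets passed. Without KO replicate 2 the Itgav difference was 0.78 (adjusted p = 0.0721) and without WT replicate 2 it was 0.79 (adjusted p = 0.0716). In a fit of the KO LPS and WT LPS arrays alone the adjusted p was 0.188. Within the 3 plate columns KO minus WT for Itgav after LPS ran from 0.16 to 1.26. The arrays of the 2 genotypes did not overlap for 3 of the 10 genes, Itgav, Itgam and Itga5, against 18.5% of all genes.

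Itgam was lower in KO LPS than in WT LPS arrays by 0.82 ± 0.23 log2 in size (1.77-fold, adjusted p = 0.0436). Over 19 alternatives its adjusted p ran from 0.0129 to 0.417 and the call was lost in 11 of them. Among these, the difference was -0.54 without KO replicate 2 (adjusted p = 0.26) and -0.96 without KO replicate 3 (adjusted p = 0.0551). Without WT replicate 1 it was -0.73 (adjusted p = 0.143), and without WT replicate 2 it was -0.70 (adjusted p = 0.192). Leaving out just the WT LPS array of replicate 1 or 2 gave adjusted p-values of 0.0975 and 0.151. On the deposited scale it was -0.56 (adjusted p = 0.272). The column differences were all negative and ran from -1.58 to -0.11.

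Itga5 fell just short of the threshold after LPS, at 1.23 ± 0.36 log2 higher in KO cells (2.35-fold, adjusted p = 0.0562), with all 3 KO LPS arrays above the highest WT LPS array. WT LPS replicate 3, at 7.70, was far above the other WT LPS arrays, and without it the difference was 1.69 (adjusted p = 0.00423). The gene passed in 9 of 19 alternatives. Itgax differed by 0.78 ± 0.34 (adjusted p = 0.216), and without the same WT LPS array by 1.20 (adjusted p = 0.0232). Itgax passed in 4 of 19 alternatives, and over the others the adjusted p reached 0.635. For Itgb1, Itgb2 and Itga4 the intervals of KO minus WT after LPS were -0.24 to 0.32, -0.37 to 0.13 and -0.33 to 0.84.

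**Figure D4:**
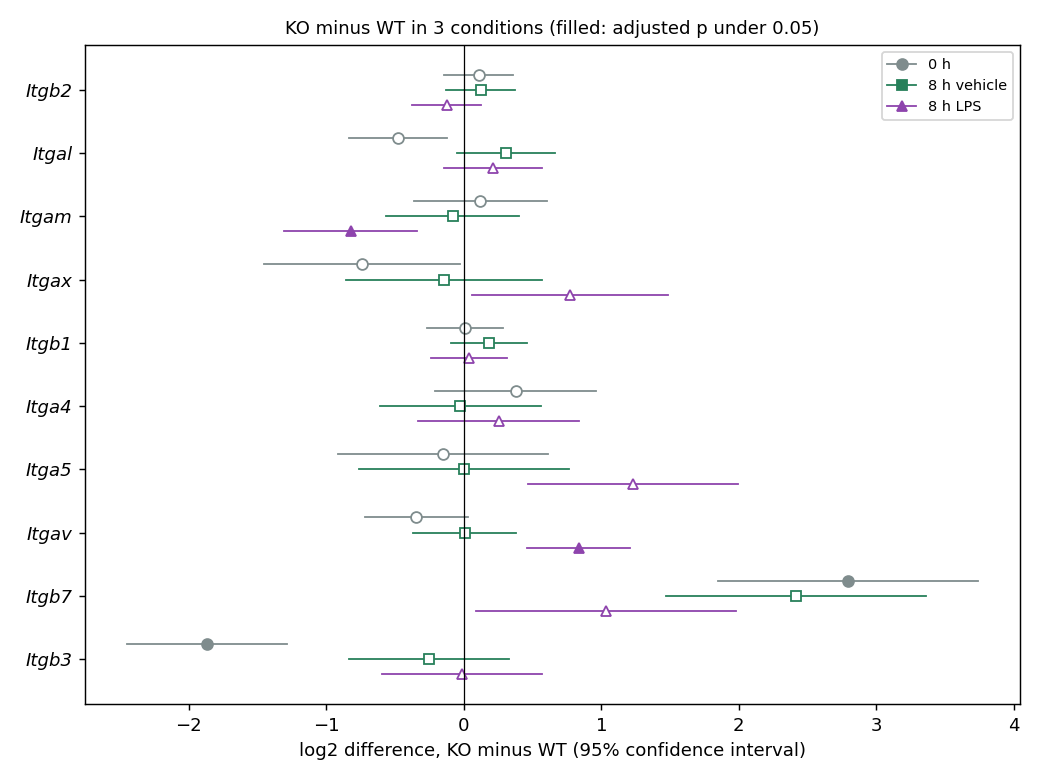
Log2 difference, KO minus WT (horizontal axis, 95% confidence interval), of each integrin gene at 0 h (grey circles), after 8 h vehicle (green squares) and after 8 h LPS (purple triangles), filled where the adjusted p is under 0.05. Itgb7 lies to the right of 0 in all 3 conditions, Itgb3 is to the left at 0 h, and Itgav and Itgam lie on opposite sides after LPS.

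Vehicle against 0 h, which shares its vehicle arrays with the LPS comparison, asked what 8 h in the new medium with PBS does. In KO cells 3 of the 10 genes rose and none fell, against 12.5% of all genes passing (6.76% higher and 5.79% lower). In WT cells 3 rose and 1 fell, against 14.2% of all genes (7.16% higher and 7.01% lower). Vehicle and 0 h arrays did not overlap for 4 of the 10 genes in KO cells (33.7% of all genes) and for 6 in WT cells (36.3% of all genes). Itgal had the largest differences among the 10, 3.86 ± 0.17 log2 in KO (14.5-fold, adjusted p = 9.9e-10) and 3.07 ± 0.17 in WT cells (8.42-fold, adjusted p = 2.19e-08). These rises of the brightest probe set passed in all 19 alternatives run. The second probe set rose by 2.27 in KO and 1.90 in WT cells, in fits where 10.8% and 11.5% of all probe sets passed.

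Itga4 rose as well, by 0.90 ± 0.28 log2 in KO cells (adjusted p = 0.0417) and by 1.30 ± 0.28 in WT cells (adjusted p = 0.00404). It read 6.08, 6.76 and 6.65 in KO 0 h arrays, so the KO vehicle array of replicate 3 at 6.69 overlapped them, and 5.86, 5.93 and 6.57 in WT 0 h arrays, all under the WT vehicle arrays. Without KO replicate 1 the KO difference was 0.44 (adjusted p = 0.495), without KO replicate 2 it was 0.93 (0.163), and without WT replicate 1 or 2 the adjusted p was 0.0546 and 0.0734. The KO call was also lost with the plate column as a block (0.0519), in a fit of the arrays compared alone (0.121), with a common median (0.112), on the deposited scale (0.2) and with common hybridisation controls (0.431). The WT call was lost without WT replicate 2 (1.23, adjusted p = 0.058).

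Itgav read 9.26, 9.27 and 9.24 in KO 0 h arrays and 9.73, 9.54 and 9.54 in WT 0 h arrays, all under the vehicle arrays of the same genotype. It rose by 1.06 ± 0.18 log2 in KO (adjusted p = 0.000834) and by 0.71 ± 0.18 in WT cells (adjusted p = 0.012). The WT call was lost without WT replicate 2 (adjusted p = 0.0833) or 3 (0.0736) and with a common median (0.133). In both genotypes the call was lost with the mean of all 5 probe sets (0.17 in KO and 0.184 in WT) and on the deposited scale (0.0702 and 0.353). It was also lost in both with common hybridisation controls (0.356 in KO and 0.758 in WT). The probe set 1421198_PM_at did not pass in either genotype here. Itgb3 fell in WT cells by 2.05 ± 0.27 log2 (adjusted p = 0.000132), which is at least 2.37-fold against the control level, with vehicle arrays at 3.21, 3.20 and 2.84.

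None of the 10 genes passed limma's test of the difference between the vehicle responses, and neither did any of the 17097 genes (0%), of which 628 had an unadjusted p under 0.05. Itgal (0.79 ± 0.24 log2, KO minus WT) had an unadjusted p of 0.00443 and an adjusted p of 0.999. For Itgb3 no difference of responses is given, since it was above the control level in WT 0 h arrays alone. The remaining members of the Itgb2 and Itgb1 groups did not pass in either genotype, among them Itgam at -0.57 ± 0.23 in KO (adjusted p = 0.121) and -0.37 ± 0.23 in WT cells (adjusted p = 0.355). One dim Itgb1 probe set, 1426920_PM_x_at, was called lower in WT cells (-1.14 ± 0.31, adjusted p = 0.0232), but it was above the control level in 2 of the 18 arrays.

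The order of the 6 group means showed which steps exceeded the spread of the arrays. For Itgal the order was KO LPS (11.89), WT LPS (11.68), KO vehicle (10.73), WT vehicle (10.42), WT 0 h (7.35) and KO 0 h (6.87), and only the 2 LPS groups overlapped as neighbours. For Itgb7 it was KO 0 h (9.86), KO vehicle (9.73), KO LPS (8.16), WT vehicle (7.31), WT LPS (7.12) and WT 0 h (7.06), where KO LPS stood clear of both neighbours as ordered and the 3 WT groups overlapped one another in turn. For Itga5 KO LPS (8.01) and WT LPS (6.78) stood clear of each other and of the vehicle groups (both 4.56), and the lower 4 groups overlapped. Itgav had KO LPS (11.05) on top without overlap, then KO vehicle (10.32), WT vehicle (10.31) and WT LPS (10.21) overlapping, then WT 0 h (9.60) and KO 0 h (9.26), each clear of the next. Itga4 had the LPS groups on top (KO 9.29 and WT 9.04), overlapping each other and clear of the vehicle groups (KO 7.40 and WT 7.42), which led into the 0 h groups (KO 6.50 and WT 6.12) with overlap. For Itgam the 0 h groups (KO 11.10 and WT 10.98) overlapped each other, WT 0 h was clear of WT vehicle (10.61), the next in order, but not of the KO vehicle array of replicate 1 at 10.87, and KO LPS (9.43) lay clear at the bottom. Only WT 0 h (5.13) was clear of its neighbour for Itgb3, and in Itgb2 and Itgax all neighbours overlapped.

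Genes with the most similar pattern were sought among the 10333 genes above the control level in at least 3 arrays, by Pearson's r over the 18 arrays, for the 8 members whose group means spanned at least 1 log2 unit. No match is given for Itgb3, which was above the level in 3 arrays of 1 group. Itgb7 was most like Fcna (0.93), which encodes a ficolin, then Tekt2 (0.86) and Pira1 (0.84). Itga4 went with Zfyve16 (0.99), Birc3 (0.98) and the NF-kB subunit gene Rela (0.98), Itga5 with Agrn, Tshz1 and Lztfl1 (each 0.98), and Itgal with Cers6 (0.99), Ccnt2 (0.98) and Atad2b (0.98). The top matches of the others were Ccl6 for Itgam (0.96), Zfp598 for Itgav (0.96) and Hvcn1 for Itgax (0.93), and Itga5 itself was among the 3 nearest to Itgax (0.91). These points share arrays and group structure, and r is given as a description.

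Of 18 other integrin subunits listed, 15 were measured and 7 exceeded the control level in at least 3 arrays. After LPS 1 rose and 4 fell in KO cells, and 1 rose and 2 fell in WT cells, beside 34.5% of all genes passing in KO and 32.3% in WT cells. Itga6, a laminin receptor subunit, fell by 3.50 ± 0.17 log2 in KO and by 2.52 ± 0.17 in WT cells. Itgb5, another partner of Itgav, fell by 2.32 ± 0.12 in KO and by 2.20 ± 0.12 in WT cells, after standing 1.55 ± 0.12 and 1.56 ± 0.12 higher in vehicle than at 0 h. Itga9, which like Itga4 pairs with Itgb1, rose with LPS by 1.42 ± 0.17 in KO and 2.26 ± 0.17 in WT cells. In the test of the difference in LPS response none of the 15 passed, against 1.11% of all genes. Between genotypes after LPS, Itga6 was 1.06 ± 0.17 (adjusted p = 0.00131) and Itga9 0.93 ± 0.17 log2 (adjusted p = 0.00343) lower in KO cells in size. Over 19 alternatives the call was lost in 2 for Itga6 and in 4 for Itga9, where the adjusted p reached 0.345. In vehicle against 0 h Itga8 fell by 1.92 ± 0.42 in KO and by 2.60 ± 0.42 in WT cells.

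Of 22 genes listed for ligands of these receptors, 19 were measured and 12 exceeded the control level in at least 3 arrays. With LPS 5 rose and 3 fell in KO cells, and 5 rose and 1 fell in WT cells, where 34.5% and 32.3% of all genes passed. Icam1, the ligand of the Itgal product, read 11.67, 11.98 and 12.10 in KO LPS arrays against 8.38, 8.63 and 8.23 in KO vehicle arrays. WT LPS arrays read 11.38, 11.02 and 11.55 and WT vehicle arrays 8.33, 8.10 and 8.42. It rose by 3.50 ± 0.16 log2 in KO and 3.03 ± 0.16 in WT cells and was 0.60 ± 0.16 higher in KO than in WT cells after LPS (adjusted p = 0.0344). Vcam1, the ligand of Itga4 with Itgb1, was above the control level in 11 of the 18 arrays. It rose by 1.07 ± 0.19 in KO and 1.66 ± 0.19 in WT cells and was 0.76 ± 0.19 log2 lower in KO cells after LPS in size (adjusted p = 0.024). Over 19 alternatives these genotype calls were lost in 9 for Icam1 and in 11 for Vcam1. In the test of the difference in LPS response none of the 19 measured ligand genes passed, against 1.11% of all genes. Tnc, the matrix protein tenascin C, was under the control level in all vehicle arrays and after LPS was at least 24.5-fold higher in KO and at least 17.6-fold higher in WT cells.

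Of 34 genes for integrin activation and adaptor proteins, 29 were measured. After LPS 9 rose and 5 fell in KO cells, and 14 rose and 3 fell in WT cells. Over all genes 13.9% were higher and 20.6% lower in KO cells, and 13.7% and 18.7% in WT cells. On the deposited scale the WT split of the adaptors turned to 5 higher and 7 lower. Src, a kinase downstream of integrins, had differences of 4.94 ± 0.26 log2 in KO and 4.96 ± 0.26 in WT cells from vehicle levels near the control level, and Vcl, which encodes vinculin, rose by 1.75 ± 0.21 and 1.59 ± 0.21. Apbb1ip, which links Rap1 to talin, rose by 1.24 ± 0.15 in KO cells, and the kinase gene Fgr by 1.62 ± 0.33 in WT cells. Each is given for that genotype alone because only the 3 largest changes of a comparison are named. In the test of the difference in LPS response none of the 29 passed, against 1.11% of all genes. KO cells after LPS had 1 of the 29 higher and 3 lower than WT cells, beside 5.97% of all genes passing. Vav1, a signalling protein of blood cells, was 0.84 ± 0.14 log2 lower in size (adjusted p = 0.00201), a call lost in 4 of 19 alternatives. In vehicle against 0 h 4 rose and 4 fell in KO, and 3 rose and 5 fell in WT cells (12.5% and 14.2% of all genes passed), with Vcl lower by 1.70 and 1.39 in size.

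Membrane partners of integrins, 11 of 12 measured, included the strongest genotype difference of these lists. Plaur, the urokinase receptor that associates with integrins, read 9.92, 10.13 and 10.11 in KO LPS arrays and 7.56, 7.13 and 8.81 in WT LPS arrays. All KO arrays were higher, by 2.22 ± 0.36 log2 on average (4.66-fold, adjusted p = 0.00134). With LPS it rose by 3.12 ± 0.36 in KO and 1.62 ± 0.36 in WT cells, and the WT call was lost without WT replicate 3, which holds the highest WT LPS array (0.83, adjusted p = 0.0561). Neither Plaur nor any other of the 11 partners passed the test of the difference in LPS response, against 1.11% of all genes. With LPS 4 partners rose and 2 fell in KO cells, and 4 rose and 4 fell in WT cells, and 3 were higher and 1 lower in KO than in WT cells after LPS. Over all genes 34.5%, 32.3% and 5.97% passed in these comparisons. The tetraspanin gene Cd9 was 0.75 ± 0.15 log2 higher in KO cells, and Emb, which encodes embigin, was 0.63 ± 0.15 lower in size, a call lost in 10 of 19 alternatives. The lists, like the 10 genes, were not chosen independently of these data.

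**Figure D5:**
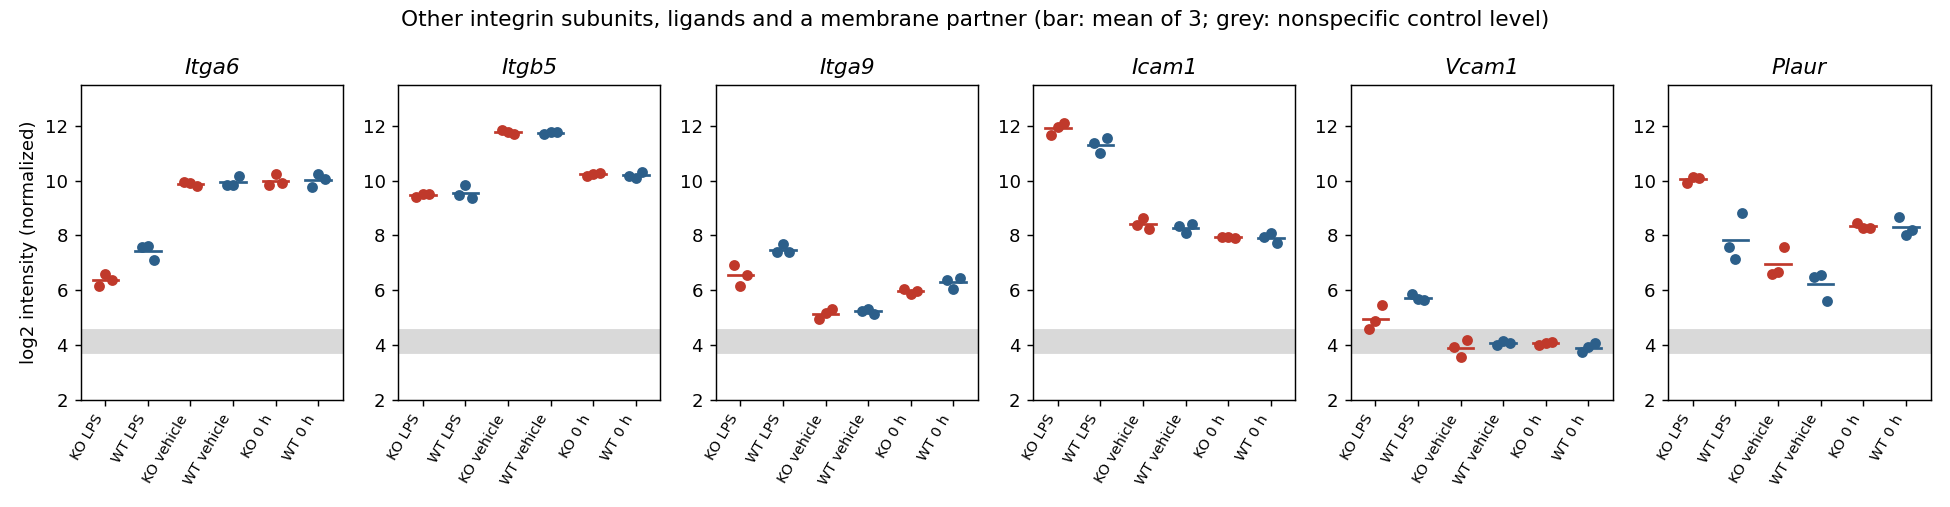
Normalized log2 intensity (vertical axis) of Itga6, Itgb5, Itga9, Icam1, Vcam1 and Plaur in the 3 arrays of each group (points, KO red and WT blue, bar at the mean), with the range of the nonspecific control level in grey. Itga6 and Itgb5 are lower in LPS than in vehicle arrays of both genotypes, Icam1 is higher, and Plaur is higher in KO LPS than in WT LPS arrays.

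Genes of the family also lie close together in places. Itgam and Itgax are neighbours on chromosome 7 with no protein-coding gene between them, and Itgal is on the same chromosome, 35 protein-coding genes away from Itgam. In KO cells after LPS the neighbours went opposite ways, Itgax higher by 1.68 log2 and Itgam lower by 1.10 in size.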

How the data were processed

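The deposited values are linear intensity for each probe set in each array, and Partek made them, per the submitters' processing notes. The sources used here give neither its version nor how background and scale were handled. The deposited columns had different distributions (medians from 11.4 to 18.6), so values were put on the log2 scale and then quantile-normalized over the 18 arrays. Of 45141 probe sets, 104 controls were left out. The probe set with the highest mean stood for each of 17097 genes with a single symbol. A model with 1 mean per group was fitted with limma 3.58.1 in R 4.3.3, with two-sided p-values adjusted by Benjamini-Hochberg within each of 10 comparisons at a threshold of 0.05. A second fit covered all 45037 noncontrol probe sets. The script was tested on simulated data. The number of arrays in a group limits the precision.

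The integrin genes, gene lists, tests and the nonspecific control level were chosen with earlier results of these data known. All 10 genes and their probe sets are described, and of each other list up to 3 genes per comparison with the largest change past the threshold. For a group wholly at or under the control level, a fold is given as "at least". Exceptions chosen after their values were seen are Icam1 and Plaur per-array values and the markers Camp, S100a8, Ccr2 and Cd79b. Same-numbered arrays of a genotype, which also share a plate column, deviated together at most weakly (r from -0.05 to 0.14, median 0.041). Differently numbered arrays of a genotype had a median r of -0.025. The main fit therefore has no block. The alternatives are described in the closing section. Promoters were read from RefSeq, build GRCm38.p6. A planned search for motifs in the proteins was not run.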

Additional observations from a re-analysis of the deposited data

Results flagged for a closer look

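One integrin result was picked out because the response to LPS differed between KO and WT cells by the test of that difference. For the Itgav probe set 1421198_PM_at the KO response minus the WT response was 1.21 ± 0.27 log2 (limma, adjusted p = 0.0498 over all probe sets). Over 18 alternatives the difference stayed between 1.06 and 1.76 log2, and the adjusted p ran from 0.018 to 0.318 and passed in 7. It was 0.318 without KO replicate 2, 0.14 without KO replicate 3, 0.0719, 0.217 and 0.171 without WT replicates 1, 2 and 3, 0.116 without WT LPS replicate 2 and 0.054 without WT LPS replicate 3. The brightest Itgav probe set had 0.83 ± 0.25 (adjusted p = 0.15).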

How the results depend on the processing

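Each gene was refitted under up to 19 alternatives: 3 other scalings, the mean of all probe sets, a filter on dim genes, values raised to the control level, only the arrays compared, another variance model, 2 blocks, 6 replicate omissions and, chosen after seeing the data, 3 single WT LPS omissions. Omitting single WT LPS arrays or other groups was not run for the average over conditions. Of 414 alternative values for integrin calls, 359 stayed past the threshold, 55 did not and none changed sign. Of 1446 for the others, 28 passed. LPS calls of Itga4, Itga5 and Itgal in both genotypes, Itgax in KO, Itgal in vehicle against 0 h and Itgb3 in WT vehicle against 0 h passed in all 19.

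Counts of the 10 genes past the threshold moved as follows. For the difference in LPS response it was 1, in place of 0, with a common median, on the deposited scale and with the mean of probe sets, and 0 to 1 over the omissions. KO against WT at 0 h gave 1 with values raised to the control level or only the arrays compared (0 to 2 over omissions), and after vehicle 1 with common hybridisation controls (0 to 1). After LPS it gave 4 on the deposited scale and with hybridisation controls, 0 with only the arrays compared and 1 with the plate column block (0 to 4). KO vehicle against KO 0 h gave 1 on both the deposited scale and hybridisation controls (2 to 3), WT vehicle against WT 0 h 2 to 4 over omissions, KO LPS 5 to 7, WT LPS 3 to 5, and the average over conditions 0 with the plate column block (0 to 1). The replicate block gave 7, 3, 0, 2, 0, 3, 3, 4, 0 and 1 in the order of KO LPS, WT LPS, their difference, KO against WT (0 h, then vehicle, then LPS), KO and WT vehicle against 0 h, their difference and the average. It added Itga5 after LPS (adjusted p = 0.021), and for the Itgav probe set 1421198_PM_at gave 0.108. Labels do not say that numbers mark pairs.

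Scaling moved the median of all genes: WT LPS against vehicle was -0.44 log2 on the deposited scale, against -0.01 as reported, and KO against WT after LPS was 0.29, against -0.02. List splits moved with it. For adaptors in WT LPS 5 rose and 7 fell on the deposited scale, against 14 and 3, and KO against WT after LPS had 3 higher and none lower, against 1 and 3. Ligands in WT LPS split 3 and 5, against 5 and 1, and membrane partners 2 and 4, against 4 and 4. Over the 1079 alternative values of the named list genes 118 lost the threshold and none reversed. The calls lost most often were Vcam1 and Apbb1ip after LPS, KO against WT, each in 11 of 19.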
